A study of Ovis aries with 15 samples.

Results

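The broadest active H3K4me3 domains of sheep perirenal fat are the 1000 widest H3K4me3 regions on chromosomes 1 to 26 that share no base with an H3K27me3 region. H3K4me3 is trimethylation of lysine 4 of histone H3, and H3K27me3 is trimethylation of lysine 27. The deposited table holds 66207 H3K4me3 regions, of which 56169 are autosomal. H3K27me3 overlapped 12348 of these and left 43821, from which the widest were taken. The domains were chosen by width and the absence of H3K27me3, and not by the read counts compared here. The width itself came from calling regions on the study's reads, so it is not shown to be independent of these counts. The domains measured 5950 to 43450 bp with a median of 7300 bp, against a median of 1200 bp over all 43821 regions.

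The fat around the kidney was taken from purebred wild-type merino sheep, either fetuses at 132 ± 1 days after conception (term 150 days) or lambs after birth. The lambs are 80 days old in the series design and 89 ± 7 days old in the growth protocol. H3K4me3 was sequenced in 2 fetuses and 3 lambs, and H3K27ac, acetylation of lysine 27, in 2 fetuses and 2 lambs. Animals 1 and 2 of each stage supplied both marks. The labels state that the animals were not treated, but every lamb title carries the tag VEH, which no fetal title has, and whatever it denotes cannot be told apart from stage. Each library is from 1 animal's whole tissue, in which fewer cells that carry a mark and less of the mark per cell cannot be told apart.

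H3K4me3 is laid down at promoters by the SET1 and MLL methyltransferases, and at most promoters it covers a short stretch around the transcription start. Broad H3K4me3 domains are known to cover promoters of genes that define a cell type and genes that are steadily transcribed. H3K27ac is written by CBP and p300 at active promoters and enhancers, while H3K27me3 is the mark of Polycomb silencing. The perirenal depot of sheep is a brown fat before birth and becomes white fat in the weeks after it. The study followed the chromatin of this transition.

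Reads within regions numbered 37544047 and 58333449 in the H3K4me3 libraries of fetuses 1 and 2, and 41765806, 13090548 and 12482468 in those of lambs 1, 2 and 3. The H3K27ac libraries held 34871674 to 44096535. For H3K4me3, 11 regions exceeded 100000 reads in some library, and none of them was a domain of the set. They took 1.64% to 7.22% of the reads in the fetuses and 13.8% to 21.6% in the lambs. Of 8 adipocyte markers, 7 were in the deposited promoter tables, and none was at 0 in any library. Their summed level per 1000000 of promoter signal was 629 to 678 in fetuses and 389 to 491 in lambs for H3K4me3, and 900 to 1027 against 642 to 665 for H3K27ac. The 5 measured of 6 brown adipocyte markers summed to 374 to 449 in fetuses and 267 to 307 in lambs for H3K4me3. The 4 measured of 5 lymphocyte markers went the other way, from 49.5 to 99.6 in fetuses to 142 to 211 in lambs, and the 3 measured of 5 macrophage markers from 41.6 to 59.3 to 107 to 192. None of these was at 0 either. The part that a changed mixture of cells has in the values below was not tested.

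The widest domain, at chr4:40417851-40461300, was 43450 bp long (positions are of the Oar_v3.1 build, counted from 1). It stood far beyond the second, chr2:82372001-82398200, with 26200 bp, and the third, chr22:31646801-31672700, with 25900 bp. Of all domains 159 exceeded 10000 bp and 8 exceeded 20000 bp. The width limit ran through 41 regions of exactly 5950 bp, of which 16 were taken, so the last domains and the first regions left out differ by position alone. Of the last 3 taken, the 5950 bp domain at chr5:50525001-50530950 had 9.28 and 19.1 H3K4me3 reads per kb in the fetuses and 9.91, 6.24 and 7.36 in the lambs. The first region left out, chr6:25472901-25478850, had 15.2, 25.99, 11.5, 7.63 and 7.94. Reads per kb are per 1000000 scaled region reads throughout, with the libraries given in the order fetus 1, fetus 2, lamb 1, lamb 2, lamb 3.

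The 1000 domains are 1.51% of all H3K4me3 regions and 7.18% of their length. They were 2.28% of the 43821 regions the rule admitted, and this share ran from 1.14% on chromosome 6 to 3.98% on chromosome 14. Only 63 domains lay within 10000 bp of another, in 31 groups. A single group held 3 domains, at chr14:46684601-46730150. Without the condition on H3K27me3, 683 of the 1000 widest autosomal regions would have been the same, and the other 317 overlapped H3K27me3.

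Of the 1000 domains, 938 overlapped at least 1 H3K27ac region. Acetylation covered a median of 84.4% of the length of these 938, and all of it in 81. The acetylation was often in pieces: 294 domains had 1 H3K27ac region, 401 had 2, 189 had 3 and 54 had 4 or 5. The next 1000 widest H3K4me3 regions were acetylated as often, 939 of 1000 with a median cover of 83.6%. Of the 1000 regions around the median width, 653 overlapped H3K27ac. The H3K27ac regions over the broadest domains were wider than those over the next 1000 (median 2650 against 2150 bp). Of the 1000 widest autosomal H3K27ac regions, 229 lay on the domains, 57 on the next 1000 and 33 on the regions of median width. All 42821 narrower regions together met 755 of them. Wider regions are also likelier to be met by chance. Within 5000 bp of an H3K27me3 region lay 9% of the domains, 9.8% of the next 1000 and 15% of the median-width regions.

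Per kb of domain, 3 domains carried the most H3K27ac reads, a measure that counts each overlapping H3K27ac region whole, also where it runs past the domain. It did so in all 3. The domain at chr5:58318851-58325200 lay inside an H3K27ac region of 36750 bp, of which 30400 bp were outside the domain, and another domain of the set lay on the same region. Per kb of itself that region had 10.2 and 8.33 reads in fetuses 1 and 2 and 7.81 and 6.84 in lambs 1 and 2. The domain at chr12:43101101-43110050 met a region of 35800 bp (9.797, 9.01, 8.20 and 7.996), and that at chr8:2223551-2229600 lay inside one of 18950 bp (15.8, 11.1, 7.35 and 7.55). These 3 domains thus stood out by the breadth of acetylation around them, and also by its density. The median H3K27ac region on the domains had 7.32, 6.91, 6.06 and 6.33 reads per kb in these libraries, below all 3. At the other end, chr14:11244701-11252650 met an H3K27ac region of 700 bp with 5.88, 5.84, 5.22 and 4.92 reads per kb. Width and H3K4me3 reads per kb were nearly unrelated within the set (rho -0.08), so the broadest of the domains were broader without being denser. The correlation runs across 1000 regions measured in the same libraries, which are not independent replicates, and is given as a description.

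H3K4me3 density in the domains differed strongly between libraries. The median reads per kb were 12.6 and 17.9 in the fetuses and 9.99, 6.64 and 7.51 in the lambs, or 15.2 ± 3.71 (SD, n = 2) against 8.04 ± 1.74 (SD, n = 3). Both fetuses lay above all 3 lambs, and the gap between the fetuses was wider than the gap between fetus 1 and lamb 1. The next 1000 widest regions ran the same course, with medians of 12.9 and 17.4 in the fetuses and 10.3, 6.65 and 7.59 in the lambs. Regions of median width did not: their medians were 4.06 and 4.43 in the fetuses and 4.64, 4.48 and 4.77 in the lambs. The median of all 42821 narrower regions was 4.54 ± 0.347 (SD, n = 2) in fetuses and 4.997 ± 0.104 (SD, n = 3) in lambs.

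**Figure D1:**
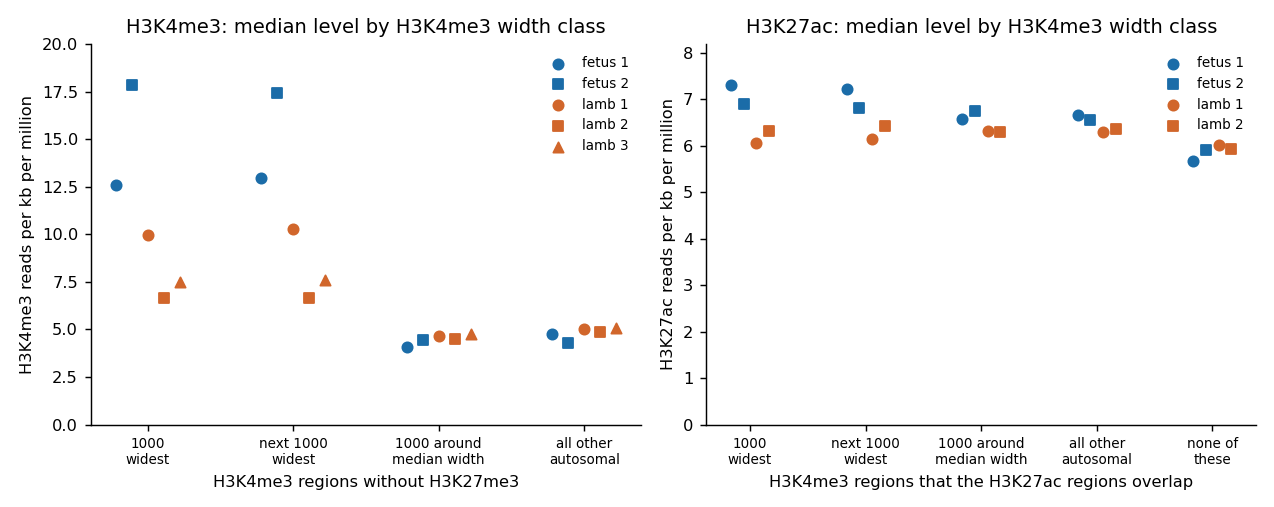
Median H3K4me3 reads per kb (left) and H3K27ac reads per kb (right) in each library, by the width class of the H3K4me3 regions; each point is 1 library, blue for fetuses and orange for lambs. The fetal points stand above the lamb points in the 1000 and the next 1000 widest regions for both marks, and the stages lie close together in narrower regions.

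Within each library the domains were denser than the narrower regions, by a ratio of medians of 2.64 and 4.16 in the fetuses and 1.99, 1.36 and 1.48 in the lambs. The ratio does not depend on how a library was scaled. It was 3.40 ± 1.08 (SD, n = 2) in fetuses and 1.61 ± 0.334 (SD, n = 3) in lambs, and no value of one stage reached the other (exact permutation test, two-sided, p = 0.2, which is the smallest p that 2 against 3 libraries allow). Set against the next 1000 widest instead, the ratio differed between stages by -0.01 (exact permutation test, two-sided, p = 0.6). The domains held 9.62% and 13.7% of the reads of the fetuses and 8.29%, 5.86% and 6.35% of those of the lambs. All 3 lambs were below both fetuses in this share too, with a mean difference of -4.84 percentage points (exact permutation test, two-sided, p = 0.2). Without the 11 regions that exceeded 100000 reads, the difference was -3.78 points. Without fetus 2 it was -2.79 points, and the difference between stages in the ratio went from -1.79 to -1.03. The lamb libraries with the lowest ratios, 2 and 3, were also the shallowest and those with the most reads in these 11 regions, and the part of either in the difference was not tested.

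Region by region, the fitted H3K4me3 change from fetus to lamb was negative at 950 of the 1000 domains, where 52.6% of all 66207 tested regions were negative. The median log2 change (lamb minus fetus) was -0.97, with quartiles of -1.20 and -0.70 and a range of -3.06 to 0.90. Over the whole table the median was -0.04. At 780 domains every lamb library was below every fetal library, which 21.9% of all regions showed, and at 14 every lamb was above every fetus, which 16.8% showed. With edgeR's quasi-likelihood test and Benjamini-Hochberg adjustment over the whole table, 8 domains were lower in lambs (0.8%, against 0.0619% of all regions) and 0 were higher (against 0.0529%). At an unadjusted edgeR p under 0.05, 673 domains were lower (against 15.4% of all regions) and 1 was higher. DESeq2 on the same counts called 566 domains lower and 1 higher, among 28983 regions to which it gave an adjusted p, 19.6% of which it called lower. The number of calls therefore turned on the method, while the sign did not. The next 1000 widest regions gave almost the same counts, with 949 negative changes, 780 regions at which every lamb was below every fetus, 4 called lower by edgeR and a median log2 change of -0.93.

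Single libraries also moved it. Without lamb 1 edgeR called 310 domains lower (against 6.07% of all regions), without lamb 2 0 (against 0%) and without lamb 3 1 (against 0.0317%). Without either fetus, 1 fetal library remained, and calls rose at the domains and over the whole table alike. The median log2 change ran from -1.19 without fetus 1 to -0.49 without fetus 2. The spread between the 2 fetuses, which the level of the domains showed, is part of the error that the test weighs the change against (median standard error 0.39 on the log2 scale).

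The 8 domains called lower form the clearest cases. Their H3K4me3 levels in the lambs lay between 1.03 and 5.88 reads per kb, under the median of the domains in each lamb library, while the fetal levels ran from 5.58 to 27.6. The largest fall was at chr1:28161601-28168550, a domain of 6950 bp. It had 11.9 and 11.9 reads per kb in the fetuses and 1.03, 1.74 and 1.55 in the lambs. The level was the lowest of all 1000 domains in each lamb library, and the fetuses differed little (log2 change -3.06 ± 0.36 SE, edgeR adjusted p = 0.00443). The second, chr7:88487851-88494200 (6350 bp), had 15.5 and 17.5 in the fetuses and 2.58, 3.07 and 2.58 in the lambs (log2 change -2.59 ± 0.35 SE, edgeR adjusted p = 0.00932).

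The third, chr22:31690851-31699400 (8550 bp), had 13.8 and 14.3 reads per kb in the fetuses against 1.40, 3.08 and 2.84 in the lambs (log2 change -2.53, edgeR adjusted p = 0.0258). It lies just past the third widest domain of the set on chromosome 22, where H3K4me3 stood at 9.78 and 15.8 in the fetuses and 4.58, 4.56 and 3.89 in the lambs and missed the threshold (log2 change -1.56, edgeR adjusted p = 0.0962). At chr5:80147401-80154500 the fetuses lay far apart, with 10.1 and 20.5 against 3.00, 3.75 and 2.80 in the lambs (log2 change -2.27, edgeR adjusted p = 0.0347). The domain at chr7:41778851-41784850 had 5.58 and 12.9 against 1.77, 2.34 and 2.13 (log2 change -2.16, edgeR adjusted p = 0.0386). At chr6:43325051-43332800 the levels were 16.4 and 27.6 against 5.88, 4.97 and 4.26 (log2 change -2.13, edgeR adjusted p = 0.0469). Stages did not overlap at any of the 8, but every lamb was also below every fetus at 780 of all 1000 domains. The remaining pair, chr2:152019251-152028700 and chr22:19615501-19623400, fell by 2.08 and by 2.02 on the log2 scale (edgeR adjusted p = 0.0420 and 0.0469). All 8 calls held in DESeq2 and without lamb 1. Without fetus 1 or fetus 2 the 8 log2 changes kept their sign. Those fits hold 1 fetal library and take their spread from the lambs, so their calls do not test the spread between fetuses. Without lamb 3 a single call held, that of chr1:28161601-28168550, and without lamb 2 none did, with log2 changes there of the same sign.

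**Figure D2:**
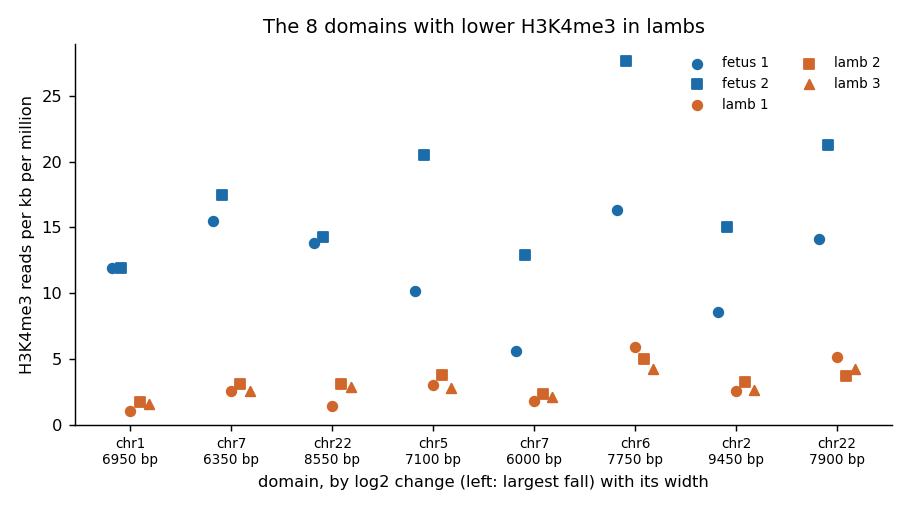
H3K4me3 reads per kb of the 8 domains called lower in lambs, with chromosome and width below each; each point is 1 library, blue for fetuses and orange for lambs. At every domain the 3 lamb points lie below both fetal points, with the lamb values between 1.03 and 5.88.

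The widest domains were among those that missed the threshold. At chr4:40417851-40461300, the widest of all, fetus 2 stood at 27.6 reads per kb and fetus 1 at 10.5, and the lambs at 8.42, 5.14 and 5.87. Fetus 1 was thus nearer to lamb 1 than to fetus 2 (log2 change -1.56 ± 0.52 SE, edgeR adjusted p = 0.1097). At chr2:82372001-82398200 the values were 13.9 and 28.2 against 9.81, 6.71 and 7.00 (log2 change -1.43, edgeR adjusted p = 0.109). Change did not grow with width: in 4 classes of equal number and falling width the median log2 change was -0.99, -0.94, -0.98 and -0.96.

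Domains that overlapped no H3K27ac region are called unacetylated here. H3K27ac reads were counted in its regions only, so an absence of the mark is not shown. The 62 unacetylated domains had H3K4me3 levels that overlapped between fetuses and lambs. Their median reads per kb were 7.58 and 6.85 in the fetuses and 8.26, 8.05 and 7.45 in the lambs, and all 5 libraries lay close together. The 938 acetylated domains had medians of 12.9 and 18.4 in the fetuses and 10.1, 6.52 and 7.51 in the lambs. The median log2 change was 0.07 in the unacetylated and -0.995 in the acetylated domains. It was negative at 20 of 62 (32.3%) and at 930 of 938 (99.1%), against 52.6% of all regions. In lamb 2 the acetylated domains had the lower median, in lamb 3 both were nearly level, and in fetus 2 they stood farthest apart. The same split in the next 1000 widest regions gave medians of -0.06 in 61 unacetylated and -0.95 in 939 acetylated regions. In regions of median width the medians were 0.03 in 347 unacetylated and 0.08 in 653 acetylated regions. None of the 62 was called in either direction.

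**Figure D3:**
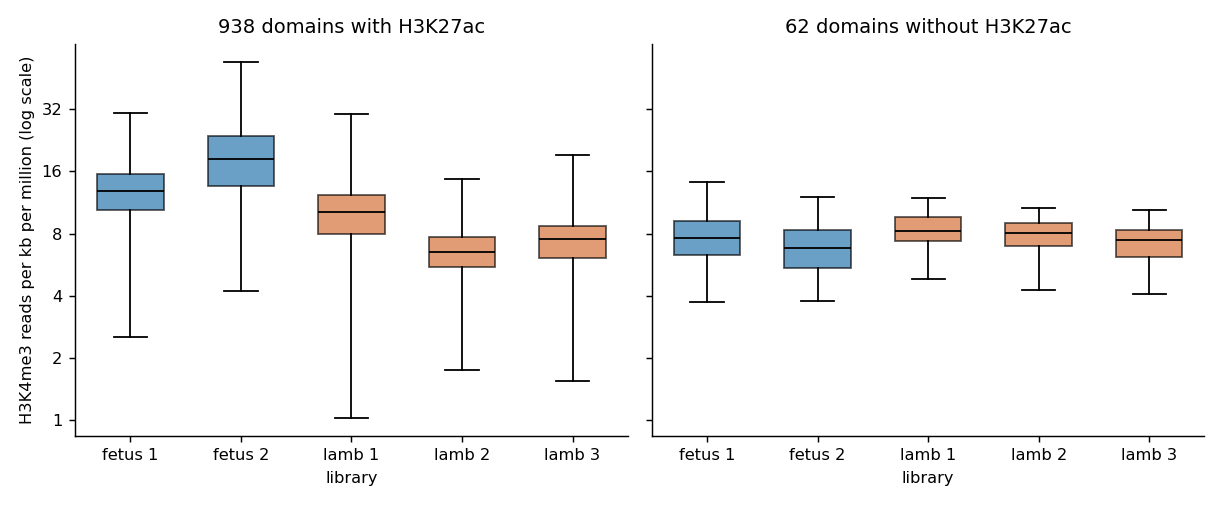
H3K4me3 reads per kb (log scale) in each library for the 938 domains that overlap H3K27ac (left) and the 62 that do not (right); boxes give the quartiles with the median as a line, and whiskers reach the lowest and highest domain. The acetylated domains descend from fetus 2 to lamb 2, and the medians of the unacetylated domains lie between 6.85 and 8.26 in all 5 libraries.

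The unacetylated domains also lay together in the genome. Chromosome 14, with 70 domains in all, held 36 of the 62, or 58.1%, against 3.62% of the acetylated domains. In the next 1000 widest regions, chromosome 14 held 26.2% of the unacetylated and 3.62% of the acetylated ones. A run of 14 unacetylated domains, 6050 to 19350 bp wide and with gaps of up to 500000 bp, spanned chr14:46055951-46851600, where 15 domains lay in all. Its log2 changes ran from -0.17 to 0.45. The widest, chr14:46317651-46337000, was 19350 bp long and had 7.59 and 10.6 reads per kb in the fetuses and 8.64, 8.09 and 7.42 in the lambs (log2 change -0.17, edgeR adjusted p = 0.860). Next to it in width was chr14:46684601-46703850 with 7.19 and 7.89 against 9.74, 9.17 and 8.86 (log2 change 0.30, edgeR adjusted p = 0.734). The fifth widest domain of the set, chr14:46398801-46421500, was the one acetylated domain of that stretch. H3K27ac covered 10.8% of it. Its H3K4me3 level was 10.62 and 13.4 in the fetuses against 10.597, 9.23 and 8.74 in the lambs, each lamb below both fetuses, though lamb 1 by little (log2 change -0.34, edgeR adjusted p = 0.706). For these domains the word active in the name of the set rests on H3K4me3 and the absence of H3K27me3 alone.

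H3K27ac, which had no role in choosing the domains, fell over them more often than elsewhere. Of the 1884 H3K27ac regions on the domains, 529 were lower in lambs (28.1%, against 9.44% of all 87271 tested) and 35 were higher (1.86%, against 4.48%), by edgeR's quasi-likelihood test with Benjamini-Hochberg adjustment. The median log2 change was -0.24. It was negative at 1406 regions, where 49.5% of all regions were negative. Both lambs were below both fetuses at 1043 regions (55.4%, against 30.2% of all) and above both at 212 (against 29.4%). At an unadjusted edgeR p under 0.05, 776 regions were lower (41.2%, against 17.3%). On the next 1000 widest H3K4me3 regions 298 of 1613 H3K27ac regions were lower (18.5%, median log2 change -0.18), on the regions of median width 105 of 660 (15.9%, -0.09), and away from all H3K4me3 regions admitted by the rule 6.39% (0.07). Calls were fewer without lamb 1 or without lamb 2, on the domains and over the whole table alike. These fits kept 1 lamb library, and the median log2 change on the domains was -0.20 and -0.26.

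In each library's own terms the change in H3K27ac was small. The median H3K27ac level on the domains was 7.32 and 6.91 reads per kb in the fetuses and 6.06 and 6.33 in the lambs, or 7.11 ± 0.289 against 6.19 ± 0.187 (SD, n = 2 each). Both fetuses were above both lambs. Regions on all narrower H3K4me3 regions stood at 6.61 ± 0.0652 and 6.33 ± 0.0485 (SD, n = 2 each). The ratio of the former to the latter was 1.10 and 1.05 in the fetuses and 0.963 and 0.994 in the lambs. H3K27ac regions on the domains held 5.96% and 5.77% of the H3K27ac reads of the fetuses and 4.82% and 5.04% of those of the lambs, a mean difference of -0.94 percentage points (exact permutation test, two-sided, p = 0.333, the smallest that 2 against 2 libraries allow).

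By the H3K27ac region that covered most of each domain, 371 of the 938 acetylated domains (39.6%) were lower and 13 (1.39%) higher in lambs. Counting every piece, 454 domains had a lower H3K27ac region and 32 a higher one, and 2 had both. A domain with more pieces has more chances of a call. Narrower regions were not counted in these ways, so these counts have no like share beside them. Of the 644 domains with 2 or more pieces, all pieces were lower in 43, and in 257 some pieces were lower and the others were not called. DESeq2 called 491 regions on the domains lower (against 8.23% of all). Lower regions were the wider ones, with a median of 4450 bp against 1800 bp for the higher ones and 2125 bp for those not called, and wider regions hold more reads. Of the lower regions 69.9%, and of the higher 37.1%, were the main piece of a domain. Among regions not called the share was 42.0%, so the lower regions were main pieces more often and the higher ones about as often.

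The largest falls in acetylation were seen in single pieces of a domain and over whole domains alike. The H3K27ac region at chr21:43279901-43281300, a piece of 1400 bp in a domain of 6400 bp, had 10.6 and 10.7 reads per kb in the fetuses and 3.53 and 3.49 in the lambs (log2 change -1.59 ± 0.16 SE, edgeR adjusted p = 8.43e-05). Among main pieces, the region at chr1:53820851-53827350 had 9.82 and 13.1 against 3.91 and 4.87 (log2 change -1.39, edgeR adjusted p = 0.000145). That at chr2:148940151-148948450 had 11.6 and 14.7 against 5.33 and 6.23 (log2 change -1.19, edgeR adjusted p = 0.000159). H3K4me3 at their domains had log2 changes of -0.85, -1.56 and -1.53 and was not called (edgeR adjusted p = 0.187, 0.105 and 0.0965). The region of 18950 bp around chr8:2223551-2229600, given above, fell by 0.85 on the log2 scale (edgeR adjusted p = 0.00122), with both lambs below both fetuses.

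The 35 higher regions measured 600 to 4450 bp, and 13 of them were the main piece of a domain. At chr11:39035301-39036450, 1150 bp at the end of a domain of 8000 bp, H3K27ac had 5.68 and 3.53 reads per kb in the fetuses and 10.4 and 10.7 in the lambs (log2 change 1.19 ± 0.20 SE, edgeR adjusted p = 0.00220). At chr18:57604701-57607200 it had 6.16 and 4.25 against 11.04 and 8.47 (log2 change 0.91, edgeR adjusted p = 0.00550). The 6 largest rises, named from those without overlap between stages, measured 600 to 2500 bp, and none of the 6 was the main piece of its domain. Without lamb 1 the call held at chr11:39035301-39036450 alone of the 6, and chr18:57604701-57607200 had an edgeR adjusted p of 0.0783. Regions called higher were fewer without lamb 1 or without lamb 2, on the domains and over the whole table alike. H3K4me3 was not called at any of these 6 domains, with log2 changes of -1.09 to 0.18.

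At the widest domain acetylation was called lower, while H3K4me3 had a log2 change of -1.56 ± 0.52 SE and missed the threshold. The median standard error on the log2 scale was 0.39 for H3K4me3 at the domains and 0.15 for H3K27ac on them. H3K27ac covered 96.4% of chr4:40417851-40461300 in 4 pieces. The main piece, 18900 bp long and wholly inside the domain, had 11.6 and 13.6 reads per kb in the fetuses and 5.41 and 5.94 in the lambs, and fell by 1.15 on the log2 scale (edgeR adjusted p = 5.05e-05). The main piece also fell at the second widest domain, by 0.62 on the log2 scale (edgeR adjusted p = 0.00114), and at the third, by 0.74 (edgeR adjusted p = 0.000723). At the fourth, chr12:23334751-23357550, it had a log2 change of -0.22 and did not pass (edgeR adjusted p = 0.182). In the fifth the lone acetylated piece fell by 0.70 (edgeR adjusted p = 0.00391), where H3K4me3 had a log2 change of -0.34 and was not called.

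Of all 938 acetylated domains, 39.6% had lower H3K27ac. Both marks were called lower at 6 domains, which are 6 of the 8 with lower H3K4me3. They were chr6:43325051-43332800, chr1:28161601-28168550, chr7:88487851-88494200, chr5:80147401-80154500, chr22:31690851-31699400 and chr7:41778851-41784850. H3K27ac fell there by 0.79, 0.71, 0.70, 0.62, 0.47 and 0.45 on the log2 scale (edgeR adjusted p = 0.000867, 0.00684, 0.00375, 0.0145, 0.0334 and 0.0372), each time by less than H3K4me3. At chr1:28161601-28168550, for example, the main H3K27ac region had 6.74 and 5.75 reads per kb in the fetuses and 4.05 and 3.56 in the lambs. No domain was called in opposite directions. With 8 domains lower and 0 higher in H3K4me3, and 13 of 938 higher in H3K27ac, such cases were hardly possible. Calls in both marks were not counted in narrower regions.

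Among all 938 acetylated domains the fitted changes of both marks were negative at 772, and H3K4me3 was negative with H3K27ac positive at 158. As H3K4me3 was negative at 930 of the 938 (99.1%), these counts mostly give the sign of H3K27ac. Domains whose acetylation fell had a median H3K4me3 log2 change of -1.20, and those whose acetylation rose -0.61. H3K4me3 was negative at all 371 of the former and all 13 of the latter, which is near the 99.1% of all 938. The changes correlated over domains (Spearman 0.54, Pearson 0.53), a description over regions that share libraries and animals.

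**Figure D4:**
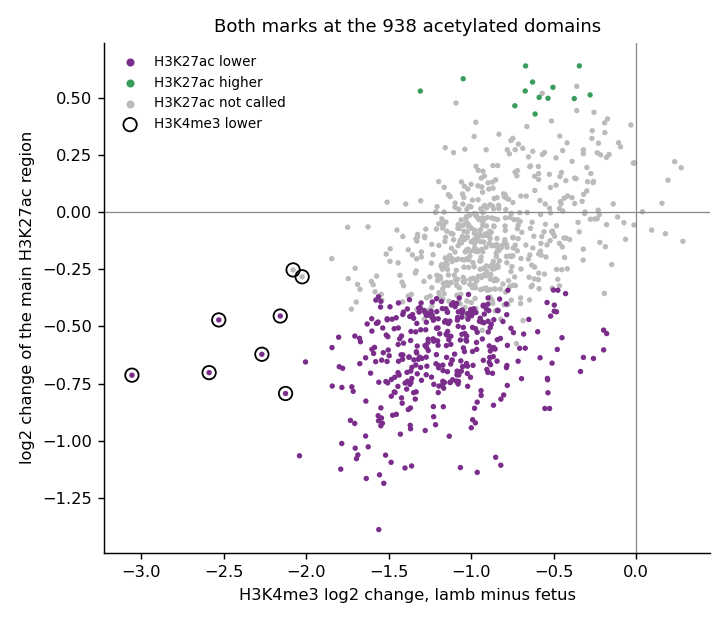
Log2 change (lamb minus fetus) of H3K4me3 against that of the main H3K27ac region at the 938 acetylated domains; each point is 1 domain, coloured where H3K27ac was called, and circles mark the 8 domains with lower H3K4me3. Nearly all points lie left of 0, and 371 are called lower and 13 higher in H3K27ac.

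The comparison with narrower regions depended on the level at which it was made. When the 43821 regions were divided into 10 bands of equal number by H3K4me3 reads per kb, 95.8% of the domains fell into the upper 3 bands. In the highest band the median log2 change of H3K4me3 was -1.06 in 434 domains and -1.01 in 3949 narrower regions. In band 9 it was -0.90 in 384 domains and -0.78 in 3998 narrower regions, and in band 8 -0.68 in 140 and -0.32 in 4241. The bands rest on the mean of the same 5 libraries whose stages the change compares, so that high fetal levels both raise the band and lower the change, and these medians are descriptions. In bands 2 to 7, where narrower regions had medians above 0, there were under 20 domains per band and no comparison was made. Under scaling by column totals in place of TMM, the median of the whole H3K4me3 table moved to 0.15 and that of the domains to -0.79, and the domains stayed below the table by a like amount.

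H3K27ac regions were banded by their own level in the same way. In the highest of 10 bands of H3K27ac reads per kb, 232 of 554 regions on the domains were lower in lambs (41.9%, median log2 change -0.32), against 17.7% of 5564 regions on narrower H3K4me3 regions (-0.10) and 2.79% of 2507 on none of these (0.40). In band 9 the shares were 33.5%, 12.4% and 1.82%. In the lowest band, by contrast, 19% of 100 regions on the domains were lower, below the 29.6% on narrower regions. These shares are descriptions, as H3K27ac regions on wide domains are themselves wider (median 2650 bp, against 1800 bp on narrower regions) and so hold more reads at the same level.

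**Figure D5:**
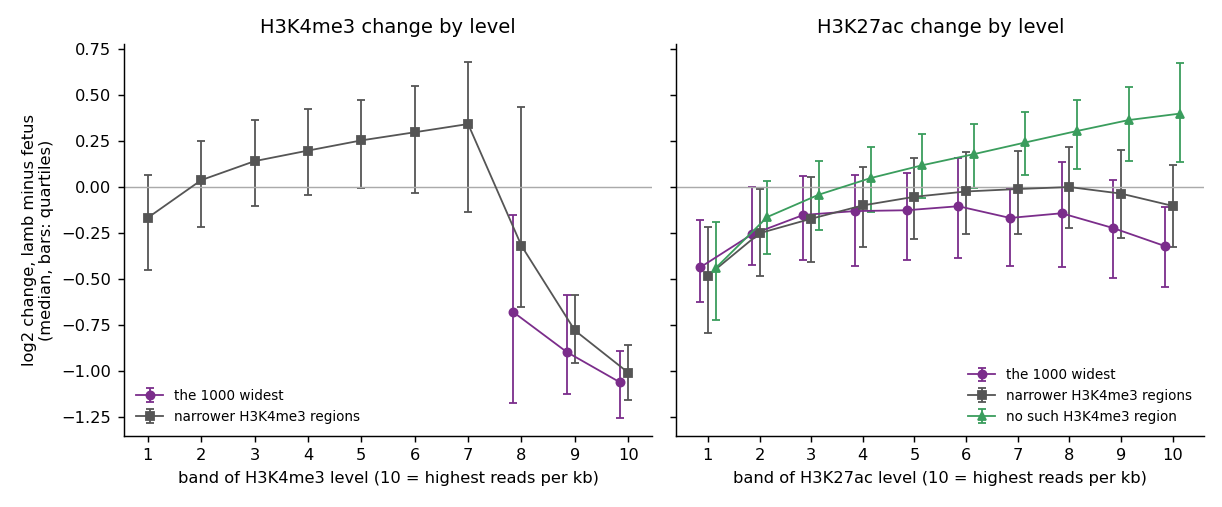
Median log2 change from fetus to lamb (bars give the quartiles) by band of level (10 bands of equal number), for H3K4me3 (left) and H3K27ac (right), in the 1000 widest domains, narrower H3K4me3 regions and, for H3K27ac, regions on none of these. In the highest band the medians of domains and narrower regions are -1.06 and -1.01 for H3K4me3, whereas in H3K27ac the domains lie lowest there (-0.32 against -0.10 and 0.40).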

How the data were processed

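Native chromatin was digested with micrococcal nuclease to fragments of about 150 bp and read as 50 bp single ends, per the labels' protocols. Reads were mapped to Oar_v3.1 in CLC Genomics Workbench 7.0 per the labels. The submitters' processing notes also list bedtools 2.19.0, edgeR and MACS. Calling of regions, per library or pooled: not given in the sources used here. Pooled inputs were not used, so no input was subtracted. The deposited region tables hold whole-number read counts per region and library. The deposited promoter tables hold a signal scaled by the authors and served only as a check of cell type markers, from 8 lists: adipocyte, brown adipocyte, lymphocyte, macrophage, endothelial, fibroblast, skeletal muscle, and kidney and adrenal.

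Region starts are multiples of 50 that include 0, so they were read as counted from 0 and are printed from 1. Counts of each whole table were tested with edgeR 4.0.16 (TMM, filterByExpr, glmQLFit and glmQLFTest, lamb minus fetus, stage as the only term) in R 4.3.3, with Benjamini-Hochberg adjustment over the table and a threshold of 0.05. The procedure was tested on simulated data. The simulated counts had the same spread in every region, so that test does not measure the error rates in these data. Levels per kb were scaled to 1000000 TMM-adjusted region reads per library. A domain took the change of the H3K27ac region that covers most of it, and overlap means 1 bp. Single values per library were compared by exact permutation tests. Alternatives were DESeq2 1.42.0, column totals, no count filter, the replicate number as a block, each library left out, 500 or 2000 domains, 50% overlap, and joining regions within 1000 bp. Bands of level, the split by H3K27ac and the run of domains on chromosome 14 were chosen after seeing the data.

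Domains, marker lists and tests were chosen with earlier results of these data known. Regions were named by a rule: the 5 widest domains, those at the width limit, up to 6 with the largest called change per direction and mark without overlap between stages, up to 5 called the same way in both marks, the 3 with most and 3 with fewest H3K27ac reads per kb of domain, the 3 widest without H3K27ac, and the largest groups. A pair of called domains beyond the first 6 was added. Regions were not linked to genes, as no annotation of this build was used here.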

Additional observations from a re-analysis of the deposited data

How the results depend on the processing

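None of the values followed for the domains as a set changed sign under any alternative run. Nor did the log2 changes of the 8 called domains and the 12 named H3K27ac regions. Other named regions were not followed. The median H3K4me3 log2 change of the whole table, -0.04, was 0.15 with column totals, 0.12 without fetus 2, 0.05 without lamb 2 and 0.01 with the replicate block. The share of domains with lower H3K4me3, 0.8%, was 56.6% with DESeq2 (8 against 566 domains), 0.48% when regions within 1000 bp were joined first and 0% without both lambs 2 and 3. Over the fits that left out 1 library it ran from 0% to 50.5%, and the share with higher H3K4me3 from 0% to 0.1%, which DESeq2 also gave (0.1%). The setting with joined regions covered 2073 regions, from 550 bp wide, of which 684 were domains of the set. Its 0.48% is thus not a share of the 1000 domains, and its median log2 change of -0.57 is not theirs. The median H3K4me3 log2 change of the domains, -0.97, became -0.56 without both lambs 2 and 3. It ran from -1.19 to -0.49 with 1 library left out. The fit with lamb 1 alone takes its spread from the fetuses. For H3K27ac, column totals gave 2.81% higher and a median log2 change of -0.17, against 1.86% and -0.24. With 1 library left out the share higher ran from 0.0531% to 8.92% and the share lower from 7.80% to 38.5%; those lower numbered 700 without fetus 1, 726 without fetus 2, 147 without lamb 1 and 247 without lamb 2, against 529. The cause of these shifts was not tested.

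The same number stands for unlike animals in fetuses and lambs, and the deviations of libraries with the same number correlated at -0.08 for H3K4me3 and 0.29 for H3K27ac. With the replicate block, 0.1% of domains had lower H3K4me3 (1 domain, that of chr1:28161601-28168550), against 0.0634% of all regions. Of the H3K27ac regions on the domains 4.30% were higher, where 11019 of all 87271 were, and 40.1% were lower, against 16.5% of all. Of the 12 named H3K27ac regions, 6 calls were lost without lamb 1 and 3 without lamb 2. Domains held at least 141 H3K4me3 reads in every library, and the 2 or 3 animals per stage limit the precision.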

Other observations

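The 4 measured of 5 endothelial markers summed to 335 to 453 per 1000000 of H3K4me3 promoter signal in fetuses and 336 to 369 in lambs. The 4 measured of 5 fibroblast markers summed to 263 to 532 and 270 to 304. For skeletal muscle 3 of 5 markers were measured, at 38.9 to 89.2 and 66.6 to 166, and for kidney and adrenal 1 of 5, at 9.35 to 49.9 and 30.5 to 56.2. The ranges of the stages overlapped in these 4 lists for H3K4me3. For H3K27ac they were apart in 3 of the 4: fibroblast (5 markers, 549 to 690 in fetuses and 398 to 460 in lambs), endothelial (432 to 434 and 378 to 413), and kidney and adrenal (2 markers, 78.0 to 85.2 and 104 to 117). Skeletal muscle markers summed to 96.9 to 170 and 115 to 116. H3K27ac at lymphocyte markers summed to 71.9 to 95.4 in fetuses and 139 to 189 in lambs, at macrophage markers to 174 to 202 and 196 to 204, and at brown adipocyte markers to 488 to 509 and 325 to 326. No marker was at 0.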
